A study of Homo sapiens with 22 samples.

Results

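Nuclear genes for the respiratory chain were followed by complex in Ls174T cells, a human colon carcinoma line, treated with BI8622, a small molecule inhibitor of the ubiquitin ligase HUWE1. Members were the genes with a symbol starting with NDUFA, NDUFB, NDUFC, NDUFS, NDUFV, UQCR or ATP5, the COX4 to COX8 genes, the SDHA, SDHB, SDHC and SDHD genes and CYC1, without pseudogenes and the NDUFAF assembly factors. This gave 85 of 25244 genes in the HUWE1 experiment and 86 of 25791 in the MIZ1 experiment, where COX7B2 was added. Of these, 78 and 79 encode subunits, and the 7 others match by name only: the factors ATP5S, ATP5SL and COX7A2L, the antisense genes NDUFA6-AS1 and NDUFB2-AS1, and the read-through genes ATP5J2-PTCD1 and NDUFC2-KCTD14. The subunit genes were 37 for complex I, 4 for complex II, 9 for complex III, 12 (13 in the MIZ1 experiment) for complex IV including NDUFA4, and 16 for complex V.

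RNA was sequenced in 2 experiments, each with 4 groups of 2 libraries. In the HUWE1 experiment, cells carrying a control vector or an shRNA against HUWE1 (shHUWE1) received the solvent DMSO or 20 µM BI8622 for 16 h. In the MIZ1 experiment, every cell carried a doxycycline-inducible shRNA against MIZ1 (shMiz1, gene symbol ZBTB17), was left without doxycycline (Dox) or received 1 µg/ml for 4 days, and was given DMSO or BI8622 in the same way. Each group below has 1 level in CPM (reads of a gene scaled to the size of the library), recovered from the authors' means over pairs of groups, so no spread between the 2 libraries of a group can be given. Effects are differences of log2(CPM + 0.5) with a standard error (SE), taken over both arms of an experiment with limma and adjusted over all genes tested (Benjamini-Hochberg, two-sided). A gene was called at an adjusted p under 0.05. CPM values are shares of the RNA, so fewer cells of a kind and less RNA per cell cannot be told apart. The sources do not say whether the libraries of a group were separate cultures or which library kit each had. No spread between libraries enters the p-values. Their error comes from how far the BI8622 effect differed between the arms of an experiment, so they do not measure the spread between cultures.

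The respiratory chain passes electrons from NADH (complex I) and succinate (complex II) through complex III and cytochrome c to oxygen at complex IV, and complex V, the ATP synthase, uses the proton gradient this builds to make ATP. Complexes I, III, IV and V combine subunits encoded in the nucleus with a few encoded in mitochondrial DNA, whereas all subunits of complex II are nuclear. Known regulators of the nuclear genes include the transcription factors NRF1, GABPA and YY1 with the coactivators of the PGC-1 family, and MYC also binds many of these promoters.

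The targeted genes followed their labels. HUWE1 was at 420 and 460 CPM in control vector cells with DMSO and BI8622 and at 218 and 176 CPM in shHUWE1 cells, and it fell by 1.16 on the log2 scale (SE 0.07, limma adjusted p = 4.84e-10). ZBTB17 was at 15.7 and 22.6 CPM without Dox and at 11 and 11.4 CPM with Dox, and it fell by 0.73 (SE 0.10, limma adjusted p = 8.3e-11). All 8 colon epithelial markers on a list were above 1 CPM in every experiment, with summed levels of 1713 to 2994 CPM over the groups. Lists of fibroblast, leukocyte and endothelial markers, each summed on its own, reached at most 8.62 CPM in any group.

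The promoters of 4 genes that fell in both experiments and have a single start listed are shown first, since the results turn on complexes III and V. They run from 250 bases before to 50 bases after the gene's start, 5′ to 3′ on the gene's strand, from RefSeq on GRCh38.p14, and capitals mark matches on either strand to the motif of NRF1 with any base at its sixth position, and to those of the ETS factors that include GABPA (CCGGAAG), YY1 (AAGATGG) and the E-box that MYC binds (CACGTG). ATP5G1 (ATP5MC1 in RefSeq, chr17:48892537-48892836, plus strand) encodes a copy of the c subunit that forms the rotor ring of ATP synthase. ATP5I (ATP5ME, chr4:674227-674526, minus strand) encodes a small membrane subunit of the same enzyme. UQCR10 (chr22:29767119-29767418, plus strand) encodes a small subunit of complex III and UQCRFS1 (chr19:29213102-29213401, minus strand) its Rieske iron-sulfur protein.
ATP5G1: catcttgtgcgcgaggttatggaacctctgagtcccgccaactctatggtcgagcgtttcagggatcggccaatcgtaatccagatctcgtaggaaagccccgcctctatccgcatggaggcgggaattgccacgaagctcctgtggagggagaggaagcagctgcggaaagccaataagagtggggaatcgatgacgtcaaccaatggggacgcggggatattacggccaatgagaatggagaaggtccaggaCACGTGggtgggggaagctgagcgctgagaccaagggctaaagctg
ATP5I: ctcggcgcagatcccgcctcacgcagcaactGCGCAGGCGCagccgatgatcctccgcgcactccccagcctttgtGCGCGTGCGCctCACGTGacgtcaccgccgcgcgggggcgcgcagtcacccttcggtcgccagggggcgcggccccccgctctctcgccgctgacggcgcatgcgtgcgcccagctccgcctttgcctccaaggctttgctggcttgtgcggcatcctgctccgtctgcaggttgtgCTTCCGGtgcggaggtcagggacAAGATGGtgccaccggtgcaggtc
UQCR10: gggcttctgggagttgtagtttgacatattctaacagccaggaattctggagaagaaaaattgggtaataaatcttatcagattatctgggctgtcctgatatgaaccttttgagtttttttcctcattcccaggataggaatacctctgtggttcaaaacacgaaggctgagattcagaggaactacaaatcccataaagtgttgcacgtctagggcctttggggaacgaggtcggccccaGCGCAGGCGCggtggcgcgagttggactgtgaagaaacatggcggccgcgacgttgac
UQCRFS1: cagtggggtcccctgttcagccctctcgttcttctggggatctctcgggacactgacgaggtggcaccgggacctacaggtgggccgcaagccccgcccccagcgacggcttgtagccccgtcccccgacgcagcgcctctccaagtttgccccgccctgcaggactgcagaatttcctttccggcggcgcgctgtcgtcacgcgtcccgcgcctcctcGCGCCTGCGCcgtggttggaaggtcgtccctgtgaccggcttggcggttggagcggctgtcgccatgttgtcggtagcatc

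The ATP5G1 window held 1 E-box, those of UQCR10 and UQCRFS1 held 1 NRF1 match each, and that of ATP5I held all 4 motifs. A promoter was listed for 64 of the 79 subunit genes. An NRF1 match was found for 15 of them (23.4%), beside 11.5% of the 13454 genes of the files with a promoter listed and 6.98% of all 27305 genes in the promoter table. For ETS the shares were 31.2%, 19.1% and 12.2%, for YY1 28.1%, 8.65% and 7.11%, and for the E-box 10.9%, 11.8% and 8.77%. By complex, an NRF1 match was found for 6 of 32 genes of complex I, 4 of 7 of complex III, 2 of 3 of complex II, 3 of 11 of complex V and 0 of 11 of complex IV. An ETS match was found for 5 of 32, 3 of 7, 2 of 3, 5 of 11 and 5 of 11 genes in that order. Among the 16 genes with a promoter that fell in both experiments, 5 held an NRF1 match, 7 an ETS match, 4 a YY1 match and 4 an E-box. A match of letters is a description of the window and not a binding site.

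With BI8622, many subunit genes of complexes III and V fell in both experiments. In the HUWE1 experiment 1 gene of complex IV, a rise, and 0 of complex II were called by limma. In the MIZ1 experiment 3 of 4 genes of complex II (75%) fell, near the 77.8% of complex III, and 4 of 13 of complex IV (30.8%). In the HUWE1 experiment, 27 of 85 members fell and 7 rose, where 17.6% of all genes tested fell and 17.9% rose. In the MIZ1 experiment, 47 of 86 members fell and 8 rose, where 26.1% of all genes fell and 28.8% rose. Among genes of at least 20 CPM, a level that most subunit genes reach, 28.8% fell and 23.4% rose in the HUWE1 experiment and 36.6% fell and 35% rose in the MIZ1 experiment. With groups centred on the median of all genes, 28 members fell and 3 rose in the HUWE1 experiment (the rises are then 9.68% of the calls, from 20.6%), and 51 fell and 5 rose in the MIZ1 experiment. The calls lean on the spread that limma shares between genes of like level, since each gene leaves 1 residual degree of freedom: with a spread shared over all genes whatever their level, 3 members fell (ATP5D, ATP5I and UQCR10) and 1 rose (ATP5S) in the HUWE1 experiment, and 27 fell and 3 rose in the MIZ1 experiment. The 3 falls are 3.53% of members, below the 6.46% of all genes that fell in the HUWE1 experiment under that fit, where 7.39% rose, so the larger share of falls among members was not seen there. In the MIZ1 experiment 31.4% of members fell under that fit, beside 21.4% of all genes, and 23.9% of all genes rose.

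Among the 78 subunit genes found in both experiments, 22 fell in both, 3 fell only in the HUWE1 experiment's calls and 21 only in those of the MIZ1 experiment, and 25 were called in neither. The share of all genes that fell in both was not computed, so the 22 cannot be read as particular to these genes. Of genes of at least 20 CPM, 28.8% fell in the HUWE1 and 36.6% in the MIZ1 experiment. COX6B2, a gene of low level, was the single subunit gene called as higher in both. In the MIZ1 experiment it was tested only through its BI8622 groups, so its call there supports nothing. Looking at the 4 arms one by one, 45 of the 78 genes were lower with BI8622 in all 4, beside 28.1% of all 24421 genes tested in both experiments, and NDUFA5 and COX6B2 were higher in all 4, beside 28.7% of all genes. These shares are over genes of any level tested, and those of genes of at least 20 CPM were not computed. The 45 genes were 14 of 16 for complex V, 7 of 9 for complex III, 19 of 37 for complex I, 2 of 4 for complex II and 3 of 12 for complex IV.

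The median effect ordered the complexes in a like way. In the HUWE1 experiment it was -0.26 for complex III, -0.21 for complex V, -0.09 for complex I, -0.08 for complex II and -0.06 for complex IV, beside -0.01 over all genes tested. In the MIZ1 experiment it was -0.37 for complex V, -0.26 for complex III, -0.22 for complex II and -0.13 for complex I, beside 0.02 over all genes, and it was -0.0033 for complex IV. These medians describe genes that are not independent replicates, and complexes were not tested against each other.

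**Figure D1:**
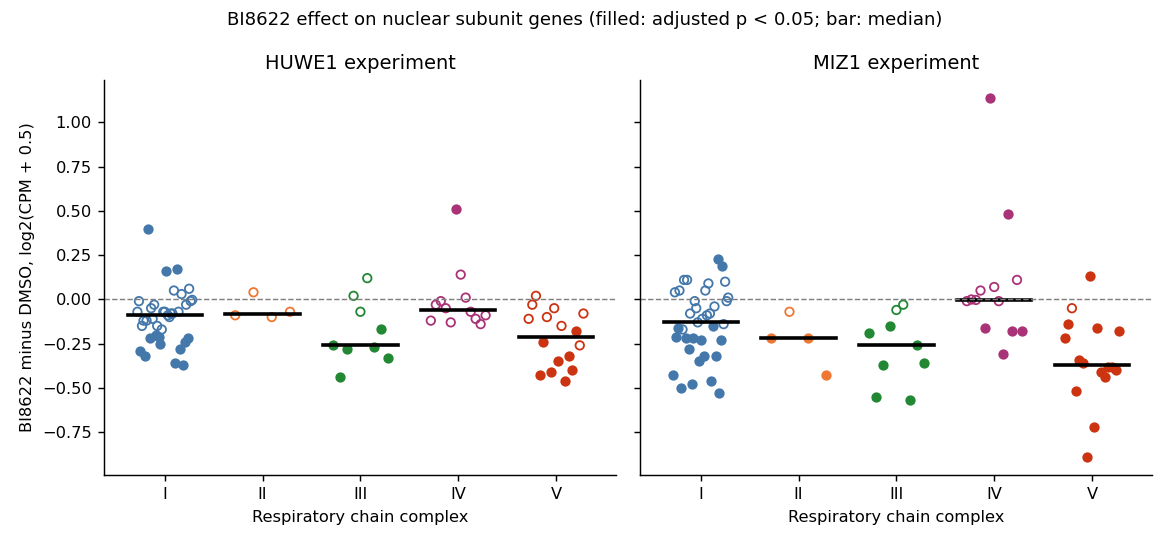
BI8622 effect, as the difference of log2(CPM + 0.5) between BI8622 and DMSO (vertical axis), for each nuclear subunit gene (1 point) of complexes I to V (horizontal axis) in the HUWE1 and MIZ1 experiments. Filled points have an adjusted p under 0.05 and the bars are medians, which lie lowest for complexes III and V, at -0.26 and -0.21 in the HUWE1 experiment and -0.26 and -0.37 in the MIZ1 experiment.

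In complex V, 8 of 16 subunit genes fell and 0 rose in the HUWE1 experiment by limma (9 had an unadjusted p under 0.05), and 14 fell and 1 rose in the MIZ1 experiment. The 3 genes ATP5G1, ATP5G2 and ATP5G3 encode the same mature c subunit of the rotor ring from separate loci, and ATP5G1 and ATP5G3 fell in both experiments while ATP5G2 fell in neither. ATP5G1 (ATP5MC1, hg19 chr17:46970127-46973233) was at 53.7 CPM with DMSO and 41.9 with BI8622 in control vector cells, at 52.2 and 37.5 with shHUWE1, at 48.4 and 26.6 without Dox and at 44 and 22.7 with Dox. Every BI8622 level was thus below every DMSO level. It fell by 0.41 (SE 0.07, limma adjusted p = 6.01e-05) in the HUWE1 experiment and by 0.89 (SE 0.07, limma adjusted p = 1.37e-34) in the MIZ1 experiment.

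ATP5G3 (hg19 chr2:176040986-176046438) went from 230 to 184 CPM in control vector cells, from 209 to 160 with shHUWE1, from 206 to 125 without Dox and from 212 to 128 with Dox. It fell by 0.35 (SE 0.06, limma adjusted p = 2.77e-05) and by 0.72 (SE 0.05, limma adjusted p = 1.64e-45), and again no BI8622 level reached a DMSO level. ATP5G2 went from 88.2 to 83.6 CPM in control vector cells and from 85.4 to 83.7 with shHUWE1, a difference of -0.05 (SE 0.06, limma adjusted p = 0.549). In the MIZ1 experiment it went from 70.1 to 77.9 CPM without Dox and from 72.1 to 77.5 with Dox, and rose by 0.13 (SE 0.06, limma adjusted p = 0.0484). This call was lost with a spread shared over all genes whatever their level. The c subunit genes have near-identical processed copies in the genome, and the authors aligned with Bowtie at its default settings, which report 1 place for a read that matches several, so reads may be split between such copies.

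**Figure D2:**
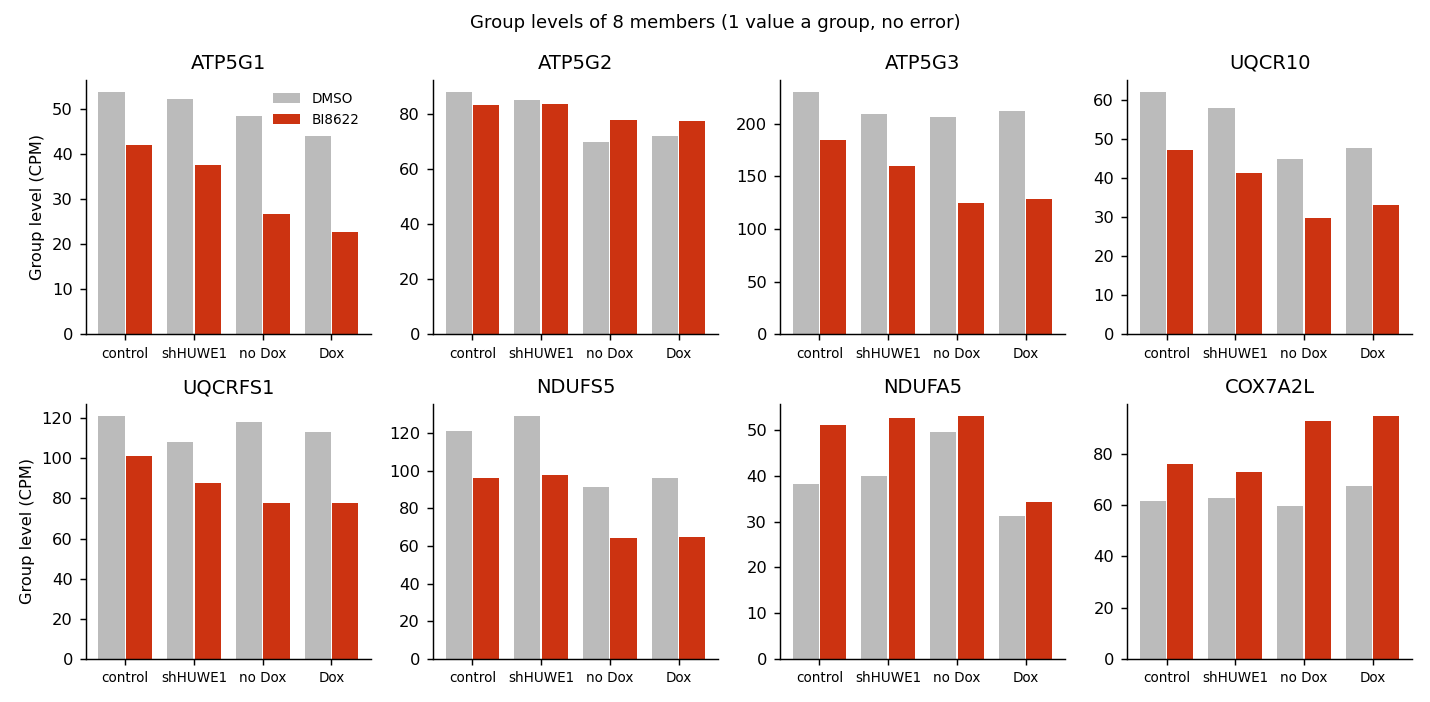
Group levels in CPM (vertical axis, from 0) of 8 members in control vector cells, shHUWE1 cells and shMiz1 cells without and with Dox (horizontal axis), with DMSO in grey and BI8622 in red; each bar is 1 recovered group level and has no error. ATP5G1, ATP5G3, UQCR10, UQCRFS1 and NDUFS5 are lower with BI8622 in all 4 arms, NDUFA5 and COX7A2L are higher in all 4, and ATP5G2 is lower in the 2 arms of the HUWE1 experiment and higher in the 2 of the MIZ1 experiment.

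In the catalytic F1 part, which makes ATP, 2 of 5 genes (40%) fell in the HUWE1 and 4 (80%) in the MIZ1 experiment. Of all genes of at least 20 CPM, 28.8% and 36.6% fell. ATP5B, the catalytic beta subunit, had the highest level of the members per kilobase of transcript, with mean levels of 740 and 704 CPM per kilobase. It was at 1354 and 1344 CPM in control vector cells, 1275 and 1233 with shHUWE1, 1299 and 1185 without Dox and 1300 and 1172 with Dox. Its effect was -0.03 (SE 0.06) in the HUWE1 experiment, and it fell by 0.14 (SE 0.05, limma adjusted p = 0.00485) in the MIZ1 experiment. ATP5C1, the gamma subunit of the central shaft, was called in neither (0.02 and -0.05).

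ATP5D, the delta subunit at the foot of that shaft, went from 72 to 53.8 CPM in control vector cells, from 78 to 56.9 with shHUWE1, from 66.1 to 46.4 without Dox and from 72.2 to 49.5 with Dox. All 4 BI8622 levels were below all 4 DMSO levels, and the gene fell by 0.43 (SE 0.06, limma adjusted p = 1.06e-05) and 0.52 (SE 0.06, limma adjusted p = 8.66e-17). Of the 8 stalk and other membrane subunit genes, 4 fell in the HUWE1 and 8 in the MIZ1 experiment, beside 28.8% and 36.6% of genes of at least 20 CPM. ATP5I went from 86.9 to 63.3 CPM in control vector cells, 80.1 to 57.6 with shHUWE1, 69.1 to 52.1 without Dox and 67.6 to 50.7 with Dox. It fell by 0.46 (SE 0.06, limma adjusted p = 3.5e-06), the largest fall of a member in the HUWE1 experiment, and by 0.41 in the MIZ1 experiment. ATP5J, a subunit that couples the stalk to the membrane part, fell by 0.32 and 0.44, and ATP5J2, a small membrane subunit, by 0.40 and 0.38. Its read-through gene ATP5J2-PTCD1, which shares exons with it, fell by 0.33 and 0.29, and the 2 cannot be told apart where reads fall in shared exons. The same holds for ATP5L2, a copy of ATP5L at 6.77 to 10.4 CPM, which had an effect of -0.26 and then fell by 0.40.

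In complex III, 6 of 9 genes fell in the HUWE1 and 7 in the MIZ1 experiment. By limma 0 rose, with an unadjusted p under 0.05 for 1 gene above 0, UQCRC2 in the HUWE1 experiment (limma adjusted p = 0.0972). Both electron-carrying subunits encoded in the nucleus fell. UQCRFS1 went from 121 to 101 CPM in control vector cells, from 108 to 87.9 with shHUWE1, from 118 to 77.9 without Dox and from 113 to 77.9 with Dox. It fell by 0.27 (SE 0.06, limma adjusted p = 0.000825) and 0.57 (SE 0.05, limma adjusted p = 4.22e-24). CYC1, which carries the haem of cytochrome c1, fell by 0.26 and 0.19.

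Of the 5 small subunits, 4 fell in the HUWE1 and all 5 in the MIZ1 experiment, beside 28.8% and 36.6% of genes of at least 20 CPM. UQCR10 went from 62.2 to 47.2 CPM in control vector cells, from 58 to 41.4 with shHUWE1, from 45 to 29.8 without Dox and from 47.9 to 33.3 with Dox. The BI8622 level was lower in all 4 arms, but across the experiments, which were normalized separately, the levels overlapped: 45 CPM without Dox and with DMSO lay below 47.2 CPM in control vector cells with BI8622. It fell by 0.44 (SE 0.07, limma adjusted p = 1.88e-05) and 0.55 (SE 0.07, limma adjusted p = 6.79e-15). UQCRQ fell by 0.33 and 0.36, UQCR11 by 0.28 and 0.37 and UQCRH by 0.17 and 0.26. UQCRB had an effect of 0.02 in the HUWE1 experiment and fell by 0.15 in the MIZ1 experiment. The 2 core proteins, which face the matrix, were called in neither: UQCRC2 had effects of 0.12 and -0.03, and UQCRC1 of -0.07 and -0.06.

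Complex I was mixed. Of its 37 nuclear genes, 11 fell and 3 rose in the HUWE1 experiment and 16 fell and 2 rose in the MIZ1 experiment, so its share that fell (29.7% and 43.2%) stood near that of all genes of at least 20 CPM. Of the 7 core subunits, which bind the flavin and the iron-sulfur clusters or lie next to them, 2 fell and 1 rose in each of the HUWE1 and MIZ1 experiments. The share that fell, 28.6% in each, did not exceed the 28.8% and 36.6% of genes of at least 20 CPM. NDUFS5, a small accessory subunit, had the largest fall of the complex: it went from 121 to 95.9 CPM in control vector cells, from 129 to 97.9 with shHUWE1, from 91.4 to 64.3 without Dox and from 96 to 64.9 with Dox. Within each experiment both BI8622 levels were below both DMSO levels. The gene fell by 0.37 (SE 0.06, limma adjusted p = 2.85e-05) and 0.53 (SE 0.06, limma adjusted p = 9.5e-20). NDUFC2 fell by 0.36 and 0.46, with its read-through gene NDUFC2-KCTD14 at -0.30 and -0.42, and NDUFA2 by 0.32 and 0.50.

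The largest rise in complex I in the HUWE1 experiment was that of NDUFA5, an accessory subunit of the arm that reaches into the matrix. It went from 38.2 to 51.2 CPM in control vector cells and from 40 to 52.6 with shHUWE1, and rose by 0.40 (SE 0.07, limma adjusted p = 7.03e-05). In the MIZ1 experiment it went from 49.7 to 53.1 CPM without Dox and from 31.3 to 34.3 with Dox, a difference of 0.11 (SE 0.07, limma adjusted p = 0.148). NDUFS1, the largest core subunit, which holds several iron-sulfur clusters, was called in opposite directions: it rose by 0.17 (SE 0.06, limma adjusted p = 0.0235) in the HUWE1 experiment, from 165 to 187 CPM and from 157 to 175 CPM in its 2 arms. It fell by 0.15 (SE 0.05, limma adjusted p = 0.00564) in the MIZ1 experiment, from 170 to 157 CPM without Dox and from 182 to 159 CPM with Dox. With both experiments in 1 fit its effect was 0.01. NDUFS4 and NDUFS7 rose by 0.23 and 0.19 in the MIZ1 experiment and had effects of 0.03 and -0.03 in the HUWE1 experiment, and neither difference between experiments passed the test (limma adjusted p = 0.195 and 0.174). With a spread shared over all genes whatever their level, the rises of NDUFA5, NDUFS4 and NDUFS7 and both calls of NDUFS1 were lost.

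All 4 genes of complex II, which is also an enzyme of the citrate cycle, stayed uncalled by limma in the HUWE1 experiment (0 with an unadjusted p under 0.05), and 3 fell in the MIZ1 experiment. SDHD, a membrane anchor, was at 56.5 and 55.4 CPM with DMSO and BI8622 in control vector cells and at 56.5 and 52.1 CPM in shHUWE1 cells. It was at 71.6 and 51.3 CPM without Dox and at 67.6 and 51.9 CPM with Dox, and there it fell by 0.43 (SE 0.06, limma adjusted p = 8.63e-12). SDHA, the flavoprotein, and SDHC, the other anchor, each fell by 0.22 in the MIZ1 experiment, with effects of -0.09 and -0.10 in the HUWE1 experiment. SDHB, the iron-sulfur subunit, was called in neither (0.04 and -0.07).

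In the HUWE1 experiment 0 of 12 genes of complex IV fell by limma and 1 rose, with an unadjusted p under 0.05 for 5 of the 12. Of 13 genes in the MIZ1 experiment, 4 fell (30.8%), beside 26.1% of all genes and 36.6% of genes of at least 20 CPM. The 2 called as rises (15.4%) were COX6B2 and COX7B2. Both passed the filter on the mean level only through their BI8622 groups, so this share is not set beside that of all genes. COX4I1, the complex's highest gene per kilobase of transcript (308 and 253 CPM per kilobase) and the regulatory subunit that binds ATP, was at 243 and 225 CPM in control vector cells, 246 and 226 with shHUWE1, 189 and 196 without Dox and 199 and 190 with Dox, so its levels overlapped between treatments in the MIZ1 experiment. Its effects were -0.12 (SE 0.06, limma adjusted p = 0.106) and -0.01 (SE 0.05, limma adjusted p = 0.914). COX7B fell by 0.31 in the MIZ1 experiment (SE 0.06, limma adjusted p = 6.92e-07), against -0.07 in the HUWE1 experiment. COX7C and NDUFA4 each fell by 0.18 and COX6B1 by 0.16 in the MIZ1 experiment.

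Of the isoform pairs of complex IV, COX6A1, COX7A2 and COX8A were at 75.4 to 111 CPM in all groups and uncalled for BI8622. Their partners COX6A2, COX7A1 and COX8C were not among the genes listed for either experiment. COX6B2, the testis form of COX6B1, was a low gene. It went from 1.47 to 2.68 CPM in control vector cells, from 1.65 to 2.21 with shHUWE1, from 0.817 to 2.74 without Dox and from 0.906 to 2.29 with Dox. All 4 BI8622 levels were above all 4 DMSO levels. Its effects were 0.51 (SE 0.20, limma adjusted p = 0.0483) and 1.14 (SE 0.20). The call in the HUWE1 experiment was lost with a pseudocount of 0.1 or 2 CPM, with median centring, with the means read as averages of log2 values and with a spread shared over all genes (limma adjusted p = 0.0503 to 0.068). COX7B2, another testis form, was at 0.615 to 1.42 CPM and had an effect of 0.48 in the MIZ1 experiment (SE 0.22). Its DMSO levels, 0.615 and 0.906 CPM, and those of COX6B2 in the MIZ1 experiment were under the minimum mean of 1 CPM, so there both genes were tested only through their BI8622 groups, and their calls, counted among the rises of the MIZ1 experiment, support nothing. At these levels few reads stand behind each value.

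Among the members that are no subunits, COX7A2L, which helps to join complexes III and IV into supercomplexes, rose in both experiments. It went from 61.6 to 76.2 CPM in control vector cells, from 62.9 to 72.8 with shHUWE1, from 59.6 to 92.7 without Dox and from 67.6 to 94.7 with Dox. Every BI8622 level was above every DMSO level. It rose by 0.26 (SE 0.06, limma adjusted p = 0.00268) and 0.56 (SE 0.06, limma adjusted p = 1.26e-21). ATP5S, a coupling factor at 11.6 to 17.3 CPM, rose by 0.48 and 0.33, and ATP5SL was called in neither (-0.05 and -0.07). The antisense gene NDUFA6-AS1 rose by 0.22 and 0.31 while NDUFA6 fell by 0.22 in both. These 2 genes lie side by side and do not overlap in the annotation. NDUFB2-AS1 lies within NDUFB2 on the other strand, and whether counting used the strand is not given, so reads of those 2 cannot be told apart.

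**Figure D3:**
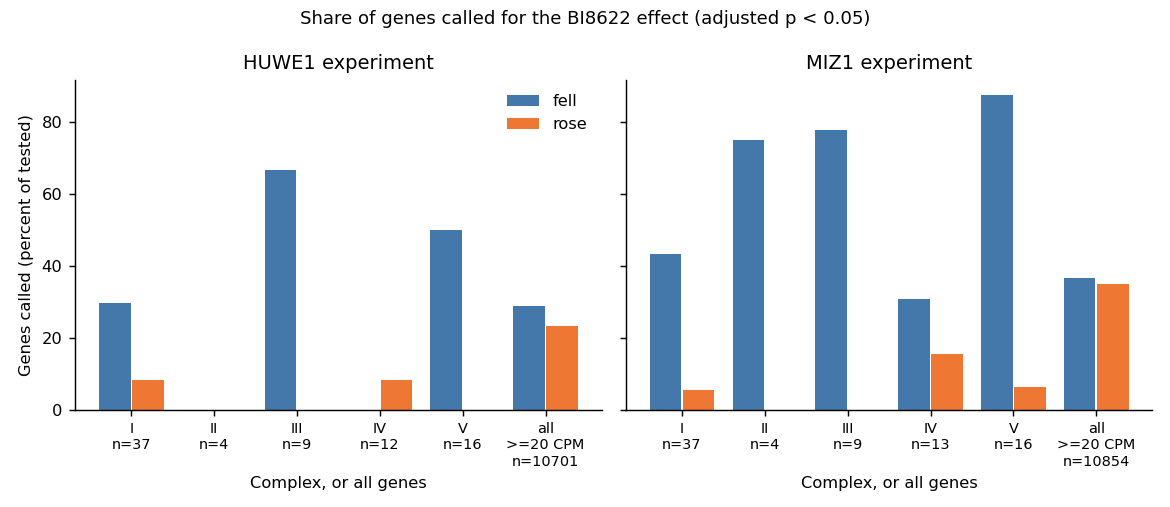
Percent of the tested genes that fell (blue) or rose (orange) with BI8622 at an adjusted p under 0.05 (vertical axis), for each complex and for all genes of at least 20 CPM (horizontal axis, with the number of genes) in both experiments. Complex III (66.7% and 77.8% fell) and complex V (50% and 87.5%) stand above all genes of that level (28.8% and 36.6%), and complex I stands near them.

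Many genes with short transcripts fell outside the respiratory chain too. Of the protein-coding genes at 20 CPM or more with a canonical transcript under 1000 bases, 41.2% (214 of 520) fell in the HUWE1 and 44.5% (233 of 524) in the MIZ1 experiment. These counts include the subunit genes of that level and length. Of the subunit genes with such transcripts, 35.6% (16 of 45) and 52.2% (24 of 46) fell, with a median effect of -0.134 and -0.158 beside -0.134 and -0.0887 for the short genes as a whole. Most subunit genes are short, with a median length of 799 bases in the HUWE1 table beside 3530 bases for protein-coding genes of that level. Across subunit genes, which share their libraries, effect and length had a Spearman rho of 0.307 in the HUWE1 experiment (77 genes) and -0.00692 in the MIZ1 experiment (78 genes). The part of transcript length in the calls was not tested.

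Levels between genes can be set side by side only per length, here as CPM per kilobase of the canonical transcript in GENCODE, whose ends may be longer than those used in these cells. On that scale ATP5B led with a level of 740 in the HUWE1 and 704 in the MIZ1 experiment, ahead of COX4I1 (308 and 253), with UQCRH (293 and 217) and COX7C (252 and 229) next in an order that differed between the experiments. NDUFS5 led complex I (224 and 160) and SDHB complex II (112 and 89.8). The lowest level of a complex I gene was that of NDUFA5 (8.28 and 7.66), whose canonical transcript is 5496 bases long.

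BI8622 effects differed between the 2 experiments for 11 of the 85 members found in both (12.9%), near the 13.3% of all genes, in a limma fit with an interaction term that was chosen after the data were seen. ATP5G1 (-0.48, limma adjusted p = 0.00397), NDUFA1 (-0.37, limma adjusted p = 0.0102), ATP5G3 (-0.37, limma adjusted p = 0.00263) and SDHD (-0.36, limma adjusted p = 0.0125) had the lowest differences, given as the MIZ1 minus the HUWE1 experiment. NDUFA1, a small membrane-bound subunit of complex I, was at 83.9 and 85.1 CPM in control vector cells and 89.5 and 80.5 with shHUWE1. It was at 59.3 and 43.8 CPM without Dox and at 59.4 and 43.8 with Dox, where it fell by 0.43. With a spread shared over all genes whatever their level, none of the 11 differences was called, and the experiments also differ in the vector the cells carried and were normalized separately, which cannot be told apart from the difference.

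**Figure D4:**
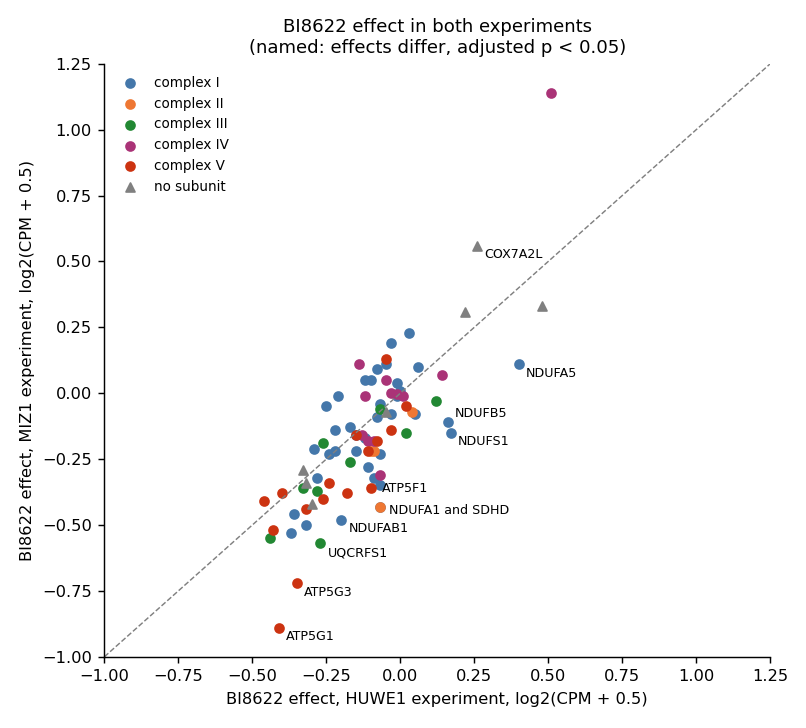
BI8622 effect on each member (1 point, coloured by complex; grey triangles are members that are no subunits) in the HUWE1 experiment (horizontal axis) and the MIZ1 experiment (vertical axis), both as differences of log2(CPM + 0.5), with the line of equal effects. Named genes differ between experiments at an adjusted p under 0.05: COX7A2L lies above the line and the other 10 lie below it, ATP5G1 lowest at -0.41 and -0.89.

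Depletion of HUWE1 or MIZ1 by shRNA called few members. For shHUWE1 against control vector, NDUFS3 alone fell, by 0.24 (limma adjusted p = 0.0138), and 0 of 85 members rose (9 subunit genes had an unadjusted p under 0.05), where 2.95% of all genes fell and 3.03% rose. NDUFS3, a core subunit next to the iron-sulfur clusters, was at 134 and 113 CPM in control vector cells with DMSO and BI8622 and at 116 and 93.3 CPM in shHUWE1 cells. Both shRNA levels were lower than the control level under the same treatment, although the ranges overlapped. The call was lost, with no member called, when the means of pairs were read as averages of log2 values or when the spread was shared over all genes whatever their level.

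With Dox, 1 member fell and 1 rose, where 1.95% of all genes fell and 1.53% rose. NDUFA5 went from 49.7 to 31.3 CPM with DMSO and from 53.1 to 34.3 CPM with BI8622 when Dox was added. Both Dox levels were below both levels without Dox, and the gene fell by 0.64 (limma adjusted p = 2.94e-18). COX6A1 went from 78.4 to 84.3 CPM with DMSO and from 76.2 to 92.7 CPM with BI8622, and rose by 0.19 (limma adjusted p = 0.0239), a call that was lost when the means of pairs were read as averages of log2 values. Neither call held with a spread shared over all genes whatever their level. Effects of Dox itself and of the loss of MIZ1 cannot be told apart in this design.

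Genes around the complexes moved as follows. CYCS, cytochrome c, which carries electrons from complex III to IV, went from 110 to 88.5 CPM in control vector cells, from 94.5 to 72.3 with shHUWE1, from 136 to 76.3 without Dox and from 133 to 77.2 with Dox. Within each arm the BI8622 level was lower, and the gene fell by 0.35 (SE 0.06, limma adjusted p = 7.18e-05) and 0.81 (SE 0.05, limma adjusted p = 5.88e-49). ATPIF1, the inhibitor of ATP synthase, had an effect of -0.14 and then fell by 0.28. Of 47 assembly factors, 16 fell and 4 rose in the HUWE1 experiment (34% fell, beside 28.8% of genes of at least 20 CPM) and 24 fell and 7 rose in the MIZ1 experiment (51.1% fell, beside 36.6%), with medians of -0.12 and -0.25. Of 13 citrate cycle genes, 3 fell and 3 rose, and then 5 fell and 4 rose, so that the shares that fell, 23.1% and 38.5%, lay near those of all genes of that level.

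The mitochondrial DNA encodes 13 subunits of the chain. In the HUWE1 experiment 8 rose (61.5%), where 17.9% of all genes and 23.4% of those of at least 20 CPM did. By limma 0 fell (9 had an unadjusted p under 0.05), and the median effect was 0.40. The summed level of the 13 genes went from 25122 to 28773 CPM in control vector cells and from 22657 to 34056 CPM in shHUWE1 cells. Of the 13 genes, 6 rose (46.2%) and 4 fell (30.8%) in the MIZ1 experiment with a median of -0.02. Of genes of at least 20 CPM, 35% rose and 36.6% fell there, so the share that fell was below that of genes of like level. The sum went from 22392 to 25478 CPM without Dox and from 22455 to 27750 CPM with Dox. MT-ND4, a complex I subunit, rose by 0.64 and 0.66, and MT-CO1 and MT-CO2, the catalytic core of complex IV, by 0.53 and 0.48 and by 0.48 and 0.62. MT-ND1 and MT-ND2, also of complex I, had effects of 0.02 and 0.05 in the HUWE1 experiment. These are averages over arms that moved in opposite directions. MT-ND1 dropped from 921 to 805 CPM in control vector cells but climbed from 893 to 1054 CPM with shHUWE1. MT-ND2 dropped from 1611 to 1412 CPM and climbed from 1552 to 1907 CPM in that order. MT-CO3, MT-CYB and MT-ATP6 likewise had opposite signs in these arms, while the 8 genes called as rises were higher in both. In the MIZ1 experiment MT-ND1 and MT-ND2 fell by 0.42 and 0.44. MT-ND4L with MT-ND4 and MT-ATP8 with MT-ATP6 overlap on the same strand, and nuclear copies of mitochondrial DNA can take reads, so the split between such genes is uncertain.

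**Figure D5:**
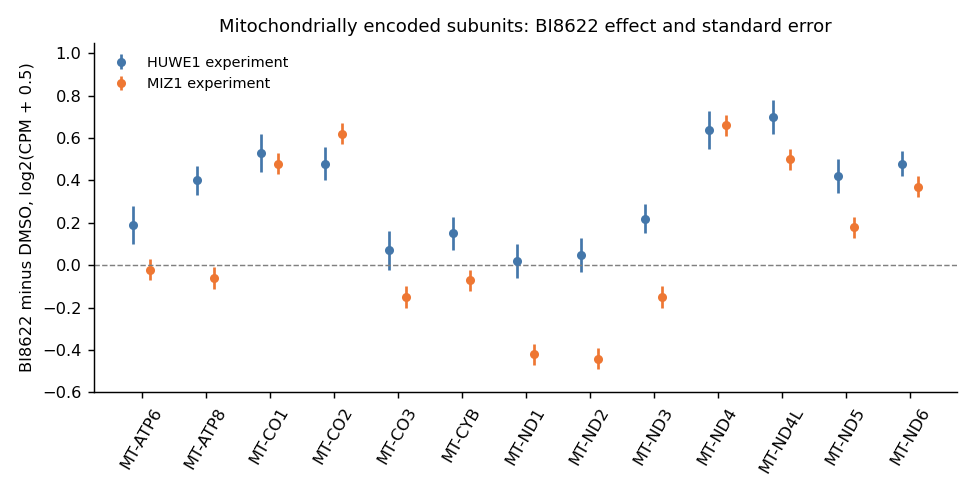
BI8622 effect on the 13 subunits encoded in mitochondrial DNA, as the difference of log2(CPM + 0.5) (vertical axis), in the HUWE1 (blue) and MIZ1 (orange) experiments, with bars for 1 standard error. MT-ND4, MT-ND4L, MT-CO1 and MT-CO2 rose by 0.48 or more in both, while MT-ND1 and MT-ND2 fell by 0.42 and 0.44 in the MIZ1 experiment.

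Of the 12 regulators on a list, 6 fell (50%) and 3 rose (25%) in the HUWE1 experiment, beside 28.8% and 23.4% of genes of at least 20 CPM. In the MIZ1 experiment 7 fell (58.3%) and 3 rose (25%), beside 36.6% and 35% of genes of that level. TFAM, which packages and transcribes mitochondrial DNA, went from 62.2 to 46.5 CPM in control vector cells, from 54.7 to 41 with shHUWE1, from 83.8 to 38.1 without Dox and from 78.7 to 41.6 with Dox, and fell by 0.41 in the first experiment and fell by 1.02 in the second. The coactivator PPRC1 fell by 0.73 and 0.90, YY1 by 0.31 and 0.42, and TFB2M, a mitochondrial transcription factor, by 0.33 and 0.60. PPARGC1A, the coactivator PGC-1alpha, went the other way: from 5.21 to 16.8 CPM in control vector cells, 5.67 to 16.6 with shHUWE1, 8.53 to 18.2 without Dox and 11.8 to 19.5 with Dox, a rise of 1.54 and 0.88. NRF1 fell by 0.24 in the HUWE1 experiment and rose by 0.21 in the MIZ1 experiment. ESRRA, a nuclear receptor that works with PGC-1alpha, rose by 0.20 and 0.23. MYC mRNA was at 123 and 95.2 CPM in control vector cells, 152 and 129 with shHUWE1, 91.7 and 38.7 without Dox and 114 and 46.3 with Dox, and with BI8622 it fell by 0.31 in the first experiment and fell by 1.26 in the second. GABPA rose by 0.21 in the HUWE1 experiment and was uncalled in the MIZ1 experiment (-0.09), PPARGC1B fell by 0.51 in the MIZ1 experiment (-0.08 in the HUWE1 experiment), TFB1M fell by 0.22 there (-0.08), and GABPB1 was called in neither (0.12 and 0.04).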

How the data were processed

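RNA of Ls174T cells was sequenced in 16 libraries, 2 a group, and the 6 ChIP libraries of the series were not analysed here. Per the labels, the authors used Bowtie 0.12.8 for the alignment to hg19 and edgeR for the comparison of groups; the sources used here do not say how reads were counted. The deposited tables hold, for each of 9 pairs of groups, a log2 fold change, a mean log2 CPM, a p-value and an adjusted p-value. The fold changes and p-values are the authors' own comparisons and were not used. The deposited mean log2 CPM values, each over the 4 libraries of a pair of groups, were turned to CPM and solved for the 4 group levels of an experiment; 1 of 25791 genes in the MIZ1 experiment gave a negative level, and the 5 means of that experiment fitted each other within a median of 0.000924 in log2 units. Library depth is unknown. Each table was normalized separately and was tested alone. No value per library was used, so n, SD and the spread between libraries cannot be given.

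Genes of at least 1 CPM on average were tested with limma 3.58.1 (R 4.3.3) on log2(CPM + 0.5), with the terms BI8622 and arm, 1 residual degree of freedom a gene and a spread that follows the mean level. The difference of the BI8622 effect between arms thus stands in for replicate error. The prior degrees of freedom were 21.1 in the HUWE1 experiment and infinite in the MIZ1 experiment, where every gene took the shared spread. p-values were adjusted over 24715 and 25252 genes. The fit was also run on simulated data with the same BI8622 effect in both arms of an experiment. That run says nothing of true differences between arms. Named genes were, in each complex and for each BI8622 effect, the 3 largest rises and falls among members of at least 5 CPM, the highest and lowest member, paralog pairs, the SDH genes and a list of regulators; members flagged for a difference between experiments, those called for an shRNA and the members that are no subunits were named after their values were seen. The members and lists were chosen with earlier results of these data known. Coordinates are hg19, from GENCODE v44 on GRCh37; promoters are from RefSeq on GRCh38.p14, matched by gene symbol for 69 of 86 members. Alternatives changed the pseudocount, the filter, the centring, the reading of the means, the fit and the trend of the spread.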

Additional observations from a re-analysis of the deposited data

Results flagged for a closer look

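The effect of BI8622 differed between the MIZ1 and the HUWE1 experiment, by the interaction term of a limma fit chosen after the data were seen, for 11 members. As the MIZ1 minus the HUWE1 experiment on the log2 scale, the differences were -0.48 for ATP5G1, -0.37 for ATP5G3, -0.37 for NDUFA1, -0.36 for SDHD, -0.32 for NDUFS1, -0.30 for UQCRFS1, -0.29 for NDUFA5, -0.28 for NDUFAB1, -0.27 for NDUFB5, -0.26 for ATP5F1 and 0.30 for COX7A2L. The share of members, 12.9%, is near the 13.3% of all genes. The experiment, its cells and its normalization cannot be told apart here. With groups of 1 recovered level, no group could be searched for a sample that stands apart.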

How the results depend on the processing

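No paired analysis was possible because the files give no value per library, and for the same reason neither the replicate block nor leaving out a library was run. Over the alternatives for counts and complex medians, 121 values kept their direction and size and 13 counts moved by over 1.5 times; no complex median moved beyond the standard error. With groups centred on the median of all genes, 3 members rose in the HUWE1 and 5 in the MIZ1 experiment, where 7 and 8 rose without it. With a spread that does not follow the mean level, chosen after seeing the data, BI8622 gave 1 rise and 3 falls in the HUWE1 experiment (3.53% of members fell, below the 6.46% of all genes), and 3 rises and 27 falls in the MIZ1 experiment (31.4% beside 21.4% of all genes); 0 fell for shHUWE1, 0 rose and 0 fell for Dox, and 0 differed between experiments, where 11 or 12 did under each of the other fits tried. This fit leaves 2.99 and 3.53 prior degrees of freedom, where the trend left 21.1 and an infinite number. With the means read as averages of log2 values, 0 fell for shHUWE1 and 0 rose for Dox. With both experiments in 1 fit, 5 members rose and 37 fell, and NDUFS1 had an effect of 0.01. For single named genes, 594 values kept their call, 51 lost it, 8 gained it and 1, that of NDUFS1 with both experiments in 1 fit, turned its direction. The depth per library is unknown, and low members such as COX6B2 rest on few reads.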
